A study of Mus musculus with 2 samples.

Results

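Elane-low granule gene cells were bone marrow cells rich in transcripts of the granule genes Mpo and Ctsg but poor in those of Elane and of the lymphoid gene Dntt. They were chosen by their own counts: at least 15 UMIs (unique molecular identifiers, each 1 counted RNA molecule) per 10000 of Mpo and Ctsg together, under 5 of Elane and under 2 of Dntt. Of 12318 kept cells, 1283 met the rule, 355 of 7190 in the control library and 928 of 5128 in the irradiated library. The study sorted LSK cells from C57BL/6J mice aged 6 to 8 weeks. LSK cells lack mature lineage markers and carry the surface proteins Sca1 and c-Kit, and this fraction holds blood stem cells and early progenitors. The control mice were not irradiated. The irradiated mice were taken at day 15 after 5 Gy to the whole body. Each condition is 1 library, and the labels do not say how many mice were pooled in it.

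Neutrophils arise from multipotent progenitors through granulocyte-monocyte progenitors. The first granules made on this path, the azurophil granules, hold myeloperoxidase (Mpo) and the serine proteases cathepsin G (Ctsg), proteinase 3 (Prtn3) and neutrophil elastase (Elane). The transcription factors Cebpa and Spi1 act early on the path, Gfi1 and Cebpe act later, and Irf8 favours the monocyte and dendritic branch over the neutrophil branch.

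The granule genes Mpo, Ctsg, Prtn3 and Elane lie apart in the genome, except that Prtn3 and Elane are neighbours on chromosome 10. On mm10 (GRCm38) with the GENCODE M21 annotation, the Prtn3 gene spans chr10:79874476-79883174 and Elane chr10:79886247-79888215 on the same strand, with 3072 bases between them. The 250 bases before the RefSeq start site (build GRCm38.p6) are shown for Mpo, Ctsg and Elane, which the rule reads, and for Prtn3, a granule gene outside it. Those of Ms4a3 are shown because this gene had the highest ratio of irradiated over control. The RefSeq and GENCODE starts differ: the Prtn3 window lies inside the GENCODE span of Prtn3, and the Elane window reaches past the GENCODE start of Elane. Capitals mark GAGGAA on either strand, a form of the core site of ETS factors such as PU.1, the product of Spi1.
Mpo (chr11:87793534-87793783, plus strand): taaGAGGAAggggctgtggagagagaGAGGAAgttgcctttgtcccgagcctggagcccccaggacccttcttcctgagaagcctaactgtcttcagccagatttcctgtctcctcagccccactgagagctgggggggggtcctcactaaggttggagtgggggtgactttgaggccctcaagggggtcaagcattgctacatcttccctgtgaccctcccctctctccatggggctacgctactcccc
Ctsg (chr14:56102575-56102824, minus strand): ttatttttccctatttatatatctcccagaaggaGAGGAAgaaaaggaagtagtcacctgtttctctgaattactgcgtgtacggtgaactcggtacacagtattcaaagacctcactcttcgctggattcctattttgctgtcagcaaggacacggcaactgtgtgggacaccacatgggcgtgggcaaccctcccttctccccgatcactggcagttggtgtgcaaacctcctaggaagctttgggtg
Prtn3 (chr10:79879417-79879666, plus strand): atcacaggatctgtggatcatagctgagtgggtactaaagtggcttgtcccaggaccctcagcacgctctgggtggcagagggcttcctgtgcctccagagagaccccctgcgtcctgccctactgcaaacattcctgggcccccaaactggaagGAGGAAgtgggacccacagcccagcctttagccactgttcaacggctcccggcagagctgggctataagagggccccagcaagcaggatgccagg
Elane (chr10:79886062-79886311, plus strand): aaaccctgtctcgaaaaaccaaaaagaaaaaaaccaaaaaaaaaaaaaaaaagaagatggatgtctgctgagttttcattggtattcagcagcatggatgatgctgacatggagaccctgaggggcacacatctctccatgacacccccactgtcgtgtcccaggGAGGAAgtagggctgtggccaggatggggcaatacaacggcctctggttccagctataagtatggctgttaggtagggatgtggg
Ms4a3 (chr19:11640852-11641101, minus strand): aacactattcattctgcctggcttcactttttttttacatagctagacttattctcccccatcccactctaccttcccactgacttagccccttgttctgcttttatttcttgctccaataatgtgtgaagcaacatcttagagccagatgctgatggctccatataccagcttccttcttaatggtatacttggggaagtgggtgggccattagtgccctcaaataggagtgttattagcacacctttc
The ETS letters stood in 4 of these 5 windows and in 23.3% of the 32851 windows of the same length in the RefSeq table. The CEBP letters TTNNGNAA stood in 1 of the 5 (Ms4a3) and in 36.8% of all windows. The MYB letters AACNG stood in 4 of the 5 and in 74.2% of all windows. All 3 motifs were searched on both strands. A match is a description of the letters and not a site of binding.

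The irradiated library held a larger share of Elane-low cells. They were 4.94% of kept control cells (exact 95% interval 4.45 to 5.46) and 18.1% of kept irradiated cells (17.1 to 19.2), 13.2 percentage points more. All intervals here cover counting error only. With 1 library per condition there is no replicate error and no test, so every difference describes these libraries. Cells that met the same Mpo and Ctsg limit but had at least 5 Elane UMIs per 10000 (Elane-high cells) were 1.21% of control and 18.1% of irradiated cells, 87 and 926 cells. Among both granule sets together, the Elane-low share was 80.3% in control (76.3 to 83.9) and 50.1% in the irradiated library (47.8 to 52.4). With a limit of no Elane UMI at all in place of 5 per 10000, members were 2.89% and 3.61% of kept cells, a difference of 0.715 points. Elane-low cells thus outnumbered Elane-high cells in control and equalled them in the irradiated library under the limit of 5, and these counts rest on where that limit lies.

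**Figure D1:**
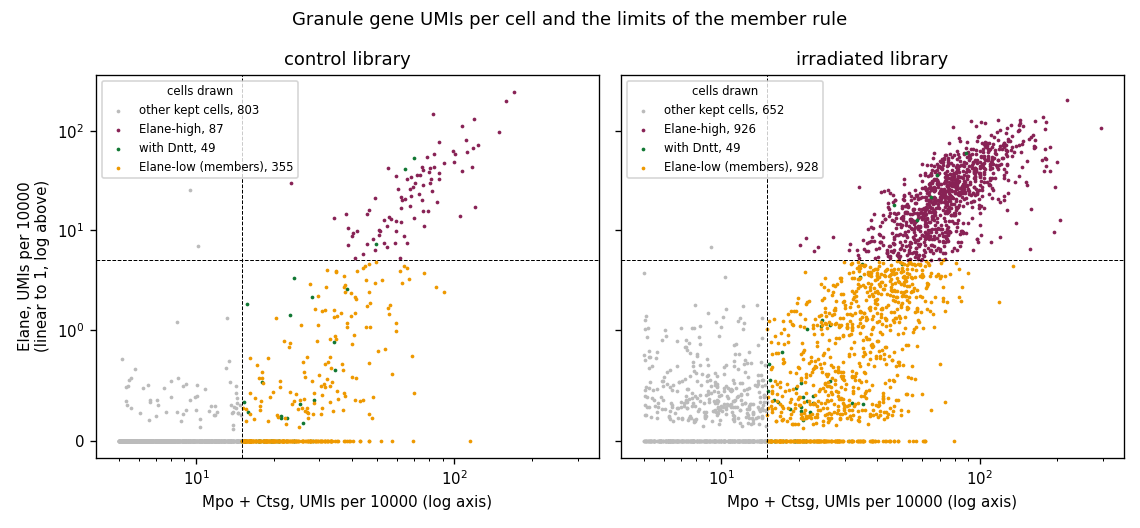
Each point is 1 kept cell with at least 5 UMIs per 10000 of Mpo and Ctsg together, drawn by that sum (log axis) and by Elane per 10000 (linear to 1, log above). Dashed lines mark the limits of the rule at 15 and 5. The 355 control members sit mostly at low Elane, while the 928 irradiated members reach up to the limit and run into 926 Elane-high cells.

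Depth differed between the libraries and between the sets of cells. Median UMIs per member were 31453 in control and 39127 in the irradiated library, against 15465 and 23364 in the remaining kept cells (those in neither granule set nor with Dntt beside the granule genes). Mitochondrial genes gave a median of 3.63% and 3.02% of member UMIs. The libraries shared 16 barcodes, and 0 barcodes were members in both libraries. Of the members, 5.07% of control and 8.41% of irradiated cells were among the 6% of cells with the highest doublet scores of their library. Without those cells the share difference was 12.6 percentage points in place of 13.2, and the genes 1.5-fold higher and lower within members, given further on, numbered 61 and 85. With each cell thinned to 5000 UMIs and the rule read on the thinned counts, members were 4.65% and 17.8% of cells, 331 and 902 cells. The share difference was then 13.1 percentage points. The part of depth in the results was not tested beyond the thinned values.

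The values that chose the cells were as follows, as a description. The sum of Mpo and Ctsg had a median of 24.8 UMIs per 10000 in control members and 32.1 in irradiated members, with a range from the 5th to the 95th percentile of 15.6 to 55.6 and 16.7 to 60.5. No UMI of Elane was found in 58.6% of control and 19.9% of irradiated members, and none of Dntt in 57.2% and 75.4%. Thinned to 5000 UMIs per cell, 18.9% and 35.9% of members had an Elane UMI, against 1.90% and 7.69% of B-lineage cells, which should lack it (cells with at least 5 UMIs per 10000 of 6 B lineage markers, median depths 21663 and 19410 UMIs before thinning). Irradiated members therefore lay closer to the Elane limit and control members closer to the Dntt limit. Just inside the Mpo and Ctsg limit, from 15 to 17 per 10000, stood 57 control and 62 irradiated cells with 986 and 1268 Prtn3 counts per 1000000 UMIs (CPM). Just outside, from 13 to 15, stood 62 and 80 cells with 914 and 1139 Prtn3 CPM. The limit cuts a gradient, and Prtn3 differed little across it. Just under the Elane limit, from 4 to 5, were 7 and 52 cells, and just over it, from 5 to 6, were 3 and 33. Just under the Dntt limit, from 1 to 2, were 24 and 37 cells, and just over it, from 2 to 3, were 15 and 14.

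The label was set beside granule genes that the rule did not read. Genes that vary with Mpo and Ctsg differ between sets chosen by these 2 genes, so the values are a description and no test. Prtn3 was at 1640 CPM in control members and 2422 CPM in irradiated members, 484 and 460 CPM in the remaining cells, and 5297 and 6618 CPM in Elane-high cells. Its log2 ratio of members over the remaining cells was 1.76 in control and 2.40 in the irradiated library, and the members lay between the other 2 sets in both. The summed level of 8 neutrophil-primed markers outside the rule had a per-cell median of 16.0 and 26.2 UMIs per 10000 in members. It was 5.90 and 5.11 in the remaining cells, and 57.3 and 78.6 in Elane-high cells. Prtn3 is 1 of the 8 and gave most of the sum in members, with per-cell medians of 13.69 and 20.99. The sum is therefore not separate from Prtn3. Gstm1, also of the 8, was lower in control members than in the remaining control cells (36.2 against 53.5 CPM). In the irradiated library it was higher (48.8 against 34.3 CPM). Of genes that act later, Fcnb, the ficolin gene of neutrophil precursors, had 1 control and 3 irradiated UMIs in all, and Cebpe was at 0.944 and 5.00 CPM against 37.1 and 41.7 CPM in Elane-high cells. Gfi1 was at 10.9 and 15.9 CPM in members and 17.5 and 29.7 CPM in Elane-high cells. In the remaining cells Gfi1 was at 13.3 and 9.75 CPM and Cebpe at 0.861 and 0.644 CPM. Mature neutrophil markers had a per-cell median of 0 in both libraries. Members thus had the early granule genes with little Fcnb or Cebpe. Their Gfi1 was above that of the remaining cells in the irradiated library only.

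Members were not uniform in lineage markers. A summed level of at least 5 UMIs per 10000 of 9 monocyte and dendritic markers was found in 29.3% of control and 25.4% of irradiated members, and in 69.0% and 58.9% of Elane-high cells. Irf8 was at 227 and 145 CPM in members, and the rule does not remove cells with monocyte and dendritic markers. The same limit was passed for 7 HSC (haematopoietic stem cell) markers by 0.282% and 0% of members (0 of 928 allows up to 0.323%), for 6 lymphoid markers by 3.94% and 0.431%, and for 7 erythroid markers by 1.41% and 0.431%. For megakaryocyte markers it was 0.282% and 0.323%, for macrophage markers 0.282% and 0.108%, for B lineage markers 0.282% and 0%, and for endothelial and stromal markers 0% in both. T and NK cell markers passed it in 9.01% and 11.2% of members and in 25.3% and 35.4% of Elane-high cells. Nkg7 was the 1 gene of that list with a mean of at least 20 CPM, and its log2 ratio was 0.39. For 6 mast cell and basophil markers it was 3.38% and 3.88%, 12 and 36 cells. Cells with at least 5 UMIs per 10000 of the basophil proteases Prss34 and Mcpt8 numbered 8 in control and 7 in the irradiated library.

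Outside the rule, 12 genes were named among those most above the remaining cells in both libraries. Prtn3 and Ap3s1, a subunit of the AP-3 adaptor that sorts cargo to lysosome-related organelles, were joined by Anxa3, F13a1, Slpi, Ly6c2, Mcpt8, Rab44, Ly86, Ms4a6c, Atp8b4 and Ccl9. Ap3s1 was at 217 CPM in control members and 272 CPM in irradiated members, against 35.9 and 56.4 CPM in the remaining cells. Anxa3, an annexin, was at 73.6 and 93.7 CPM in members against 9.78 and 10.7 CPM. F13a1, the A chain of coagulation factor XIII and a gene of the monocyte line, was at 68.6 and 62.8 CPM against 2.58 and 5.11 CPM. Slpi, an inhibitor of elastase and cathepsin G, was at 79.8 and 69.9 CPM against 11.3 and 14.6 CPM. These genes share their cells with Mpo and Ctsg and were chosen by this difference, so the values are a description.

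Between the libraries, expression within members was close for most genes. Of 4987 genes tested by size, with a mean of at least 20 CPM over both libraries and the rule genes left out, 57 were at least 1.5-fold higher in irradiated members, a percentage of 1.14, and 88 at least 1.5-fold lower, 1.76. The median log2 ratio of all 4987 was 0.04. The counting interval of each of these called genes excluded 0. Of the 57 and 88 genes, 41 and 64 reached 20 CPM in both libraries, and the rest passed the minimum through the library in which they were high. Since irradiated members had more Mpo and Ctsg, the control cells were also weighted to the irradiated spread over 6 bins of that sum. All 57 and 88 genes kept their direction, and 39 and 68 were still at least 1.5-fold apart. The counts were 145 and 169 after thinning to 5000 UMIs per cell, and 89 and 59 without the 10 highest cells of each gene. Those 10 cells are a larger part of the 355 control members than of the 928 irradiated members. Leaving them out can therefore raise the ratios by itself.

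Ms4a3, a membrane protein gene of granulocyte-monocyte progenitors, differed most in the upward direction. It was at 45.0 CPM in control members and 341 CPM in irradiated members, a log2 ratio of 2.92 (95% interval 2.80 to 3.05). Weighted to the same Mpo and Ctsg bins the ratio was 2.30, and over all 11 alternatives it ran from 1.84 to 3.52. In Elane-high cells Ms4a3 was at 641 and 1131 CPM (log2 0.82), and in the remaining cells at 3.80 and 46.2 CPM (3.60). The level climbed with Mpo and Ctsg in both libraries: from 15 to 25 UMIs per 10000 it was 9.31 CPM in control and 161 CPM in irradiated members, from 25 to 40 it was 36.7 and 321 CPM, and from 40 up it was 167 and 522 CPM. Irradiated cells of the lowest bin thus had as much Ms4a3 as control cells of the highest. The 10 control cells with most Ms4a3 held 39.1% of its control UMIs, and with the 10 highest cells per library left out the ratio was 3.52. After thinning each cell to 5000 UMIs, 13.8% of control and 59.3% of irradiated members had at least 1 Ms4a3 UMI (30.4% and 86.4% unthinned). B-lineage cells, which should lack the gene, gave 0 of 105 (up to 2.86%) and 2.56% of 39 when thinned, and 1.72% and 17.5% unthinned. Among the thinned B-lineage cells, 2.86% of control and 38.5% of irradiated ones had an Mpo UMI. For Ctsg it was 3.81% and 15.4%. The part of such background in the Ms4a3 ratios was not tested.

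Granule genes outside the rule showed smaller differences. Prtn3 had a log2 ratio of 0.56 (0.54 to 0.59), short of 1.5-fold, and of 0.35 when weighted to the same bins. It was higher in irradiated members in each of 3 bins, with log2 ratios of 0.34, 0.36 and 0.34. Its neighbour Elane, which the rule limits, was at 60.3 and 132 CPM. Hp, haptoglobin, was at 34.1 and 71.4 CPM (1.07), and at 0.56 in the weighted comparison. Prss57, a further azurophil serine protease, was at 51.2 and 70.3 CPM (0.46). Of 17 genes measured of the azurophil granule and its traffic list, 1 was at least 1.5-fold higher and 0 lower, with a median log2 ratio of 0.18 against 0.04 over all genes. Lyz2, Cst7 and Cd63 were slightly below 0, with log2 ratios of -0.21, -0.27 and -0.19.

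**Figure D2:**
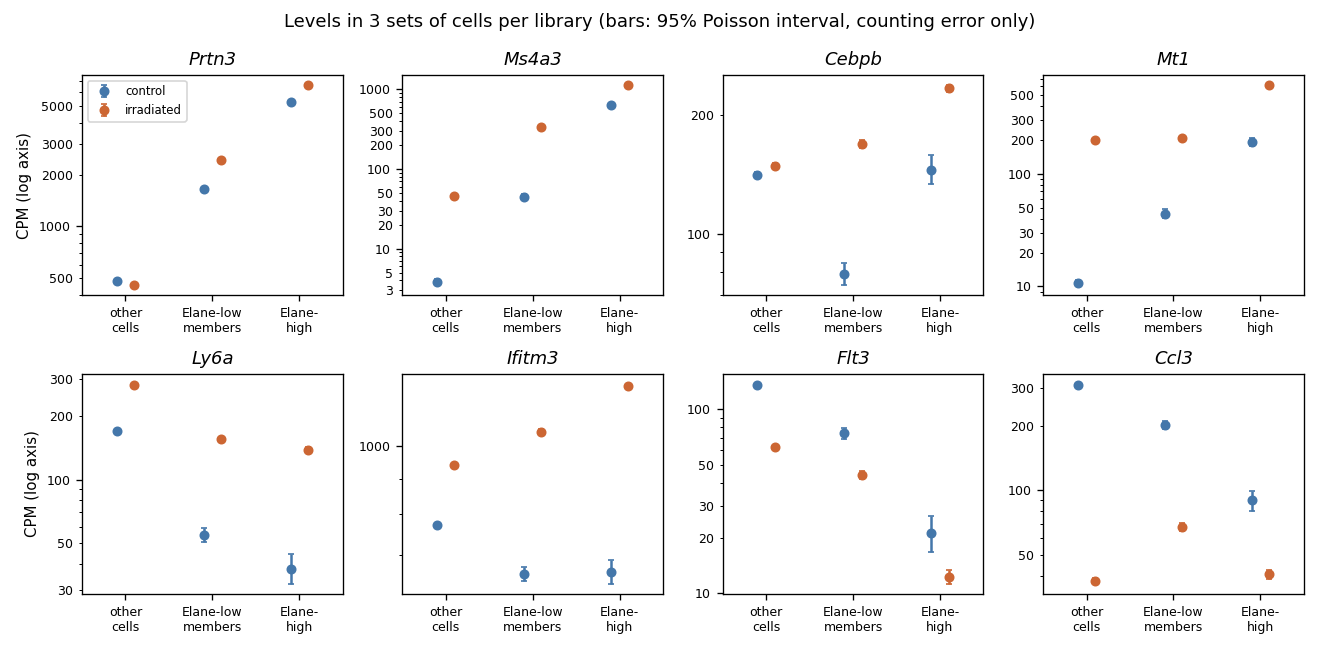
Levels of 8 genes in CPM (log axes) in the remaining cells, Elane-low members and Elane-high cells, control in blue and irradiated in orange, with 95% Poisson intervals for counting error. Prtn3 and Ms4a3 climb from left to right in both libraries, and Flt3 falls. Mt1, Ly6a and Ifitm3 are higher in the irradiated library and Ccl3 is lower in all 3 sets.

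Among 11 measured myeloid transcription factors, 3 were at least 1.5-fold higher and 1 lower, and the median was 0.01. Cebpb, the C/EBP factor of emergency granulopoiesis, was at 78.9 CPM in control members and 170 CPM in irradiated members (log2 1.10, 1.00 to 1.20). It was at 146 and 235 CPM in Elane-high cells (0.69) and at 141 and 148 CPM in the remaining cells (0.07). Trib1, which targets C/EBP-alpha for degradation, was at 22.6 and 38.8 CPM (0.78). Id1 was the third, at 21.7 and 33.1 CPM (0.61), but 10 cells held 42.7% of its control UMIs. Irf8 was the factor in the downward direction (log2 -0.65, -0.72 to -0.58). It was also lower in Elane-high cells (-0.75) and level in the remaining cells (-0.02). In members called G1 alone, 38 and 76 cells, it was level too (0.071). Cebpa was at 36.8 and 52.0 CPM (0.50) and Spi1 at 181 and 180 CPM (-0.01). From the lowest to the highest of 3 Mpo and Ctsg bins, the Cebpa ratio was 0.95, 0.22 and -0.09. Gfi1, under the minimum of 20 CPM, had a log2 ratio of 0.55. Members of the 2 libraries were thus close in Spi1 and apart in Cebpb and Irf8.

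Several genes of stem and lymphoid programmes were at least 1.5-fold lower in irradiated members. Flt3, the receptor of multipotent and lymphoid-primed progenitors, was at 73.9 CPM in control members and 43.9 CPM in irradiated members (log2 -0.75, -0.87 to -0.63). Satb1, a chromatin organiser of lymphoid priming, was at 85.1 and 45.4 CPM (-0.91, -1.02 to -0.79). Of 3 lymphoid-primed markers measured, 2 were at least 1.5-fold lower and 0 higher. Hlf, a stem cell transcription factor, was at 32.6 and 12.4 CPM (-1.40, -1.60 to -1.20). Of 8 stem and multipotent factors, 2 were lower and 0 higher, and Meis1, a cofactor of Hox proteins, had a log2 ratio of -0.69. Hoxa9 was close, with -0.05. The median of that list was -0.26, but it was -0.05 over the 7 genes at 20 CPM or more in both libraries. It was 0.013 without the 10 highest cells of each gene, a setting that takes out a larger part of the control members. These genes also declined with Mpo and Ctsg inside members: control Flt3 was at 83.6, 72.6 and 48.8 CPM over the 3 bins and irradiated Flt3 at 51.3, 46.3 and 34.5 CPM. Satb1 stood at 108, 74.9 and 42.4 CPM in control and 53.3, 44.4 and 39.7 CPM in irradiated members, so its difference was within counting error in the highest bin. Control members also carried Dntt more often, with no UMI of it in 57.2% of control and 75.4% of irradiated members. Just under the Dntt limit Flt3 was level, at 107.3 CPM in 24 control cells and 106.7 CPM in 37 irradiated cells. Just over that limit it was at 101 CPM in 15 control cells and 109.6 CPM in 14 irradiated cells. The part of Dntt in the Flt3, Satb1 and Hlf differences was not tested further. In the remaining cells Flt3, Satb1 and Hlf had log2 ratios of -1.12, -1.19 and -1.56.

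**Figure D3:**
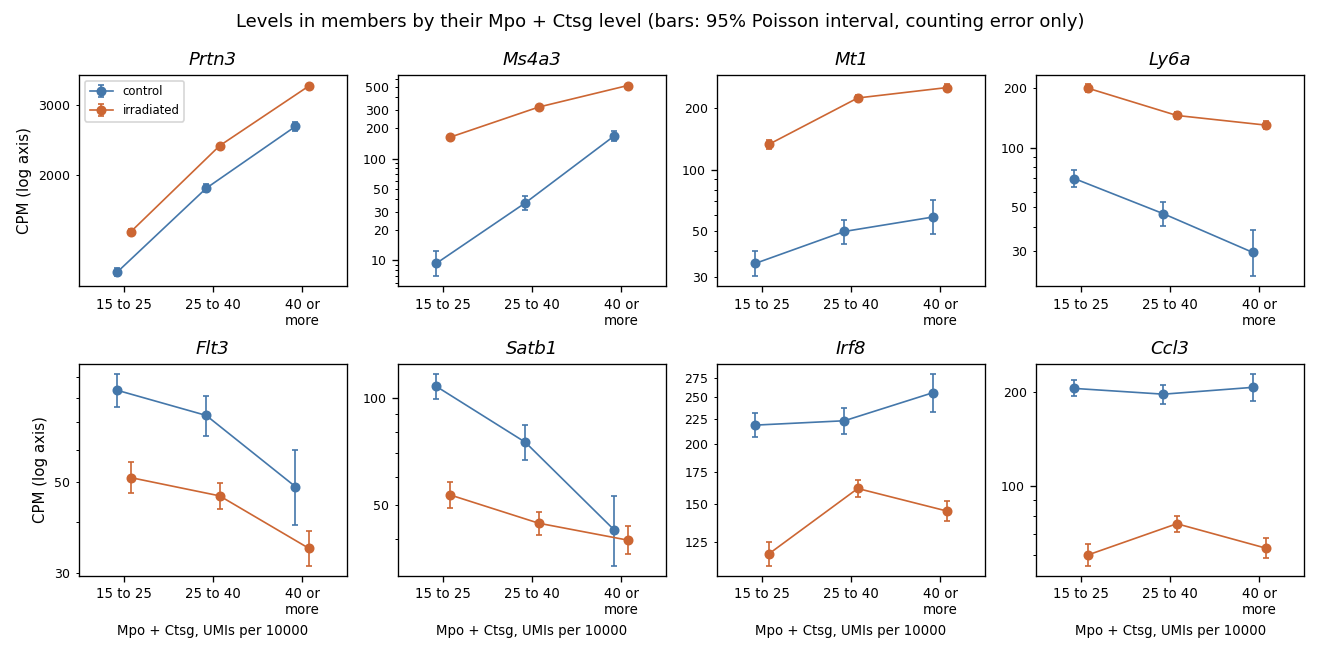
Levels of 8 genes in members by bins of Mpo and Ctsg UMIs per 10000, in CPM (log axes), with 95% Poisson intervals. Ms4a3 differs most in the lowest bin (9.31 against 161 CPM), Mt1, Ly6a and Ccl3 are apart in 1 direction in all 3 bins, and Satb1 meets in the highest bin.

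Surface and receptor genes went in both directions. Ly6a, which encodes the sort marker Sca1, was at 54.8 CPM in control members and 155 CPM in irradiated members (log2 1.51, 1.39 to 1.63). The ratio was 1.70 with matched bins, 1.87 in Elane-high cells and 0.73 in the remaining cells. Thinned to 5000 UMIs, 22.3% of control and 50.3% of irradiated members had a Ly6a UMI, as did 43.8% and 71.8% of B-lineage cells, which carry the gene too. Cells entered the libraries through a Sca1 gate, and whether the gate admitted other cells after irradiation or the same cells carried more Ly6a cannot be told apart. Kit, the other sort marker, was at 91.8 and 70.0 CPM (-0.39). Of 13 sort and progenitor surface genes, 2 were higher, Ly6a and Ly6c2, and 0 lower. Ly6c2, a marker of monocyte-committed cells, was at 54.8 and 91.5 CPM (0.74), but 10 cells held 49.1% of its control UMIs and in the middle bin its ratio was -0.05. Ccr2, a chemokine receptor of monocytes, was at 42.8 and 69.3 CPM (0.69). Among 5 monocyte and dendritic markers measured, 2 were thus higher and 1 (Irf8) lower. Their median was -0.26, but it was 0.21 over the 4 genes at 20 CPM or more in both libraries and 2.57 in G1 cells alone, so the list has no stable direction. Of 11 cytokine receptors, 1 was lower (Flt3) and 0 higher. Csf3r, the G-CSF receptor, was at 32.4 and 25.3 CPM (-0.36), and Csf1r, the M-CSF receptor, at 24.7 and 19.7 CPM (-0.33).

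The measured genes of the interferon response list were higher in irradiated members. Of 13 measured, 5 were at least 1.5-fold higher, 0 lower and all 13 above 0, with a median log2 ratio of 0.52. Over the 10 of them at 20 CPM or more in both libraries, 2 were at least 1.5-fold higher and the median was 0.46. Ifitm3, an interferon-induced membrane protein, was at 657 and 1048 CPM (0.67, 0.64 to 0.71), and Ifi27l2a at 92.9 and 147 CPM (0.67). Rtp4 was at 12.6 and 40.8 CPM (1.69) and Xaf1 at 15.8 and 36.7 CPM (1.22). Ifitm1 was at 799 and 1148 CPM (0.52), while Ifitm2 was level (0.02). The list median was 0.72 in Elane-high and 0.61 in the remaining cells. Of 8 listed MHC class I genes, 0 passed 1.5-fold, and the median was 0.15. The lists do not hold every gene of these families. Outside them, the interferon-inducible gene Ifi209 was lower, at 32.1 and 21.1 CPM (-0.61). The MHC class I gene H2-Q6 was lower too, at 66.5 and 42.3 CPM (-0.65). The interferon list median was thus above 0 in each of the 3 sets of cells. In members it was also above the median of all genes tested (0.04), which was not computed for the other sets.

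Mt1, a metallothionein that binds zinc, had the second highest ratio. It was at 44.3 CPM in control members and 208 CPM in irradiated members (log2 2.23, 2.10 to 2.36), 192 and 610 CPM in Elane-high cells and 10.8 and 200.2 CPM in the remaining cells. The difference was thus present in all 3 sets, with a log2 ratio of 4.21 in the remaining cells. A UMI of Mt1 was found in 14.6% and 47.5% of thinned members and in 3.81% and 12.8% of thinned B-lineage cells. The other 16 measured genes of the metallothionein and antioxidant list stayed within 1.5-fold, and the list's median was 0.18. S100a6, a calcium-binding protein, was at 24.0 and 67.4 CPM (1.49), with a log2 ratio of 0.09 in Elane-high cells and 1.41 in the remaining cells. Lgals1, galectin 1, was at 667 and 1074 CPM (0.69). Serpina3g, a serine protease inhibitor, was at 54.0 and 86.9 CPM (0.69).

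Some immediate early genes and the chemokines Ccl3 and Ccl4 were lower in irradiated members. Of 16 immediate early genes measured, 7 were at least 1.5-fold lower and 0 higher, with a median log2 ratio of -0.50. Fosb was at 175 CPM in control members and 93.3 CPM in irradiated ones (-0.91). Egr1 stood at 61.7 and 31.8 CPM (-0.95), Btg2, an antiproliferative gene, at 94.1 and 45.4 CPM (-1.05). Fos was at 561 and 475 CPM (-0.24), and Myc was level (0.02). The list median was 0.05 in Elane-high cells and -0.94 in the remaining cells. With matched Mpo and Ctsg bins it was -0.28 in members. Ccl3, a chemokine of the macrophage inflammatory family, was at 202 and 67.4 CPM (-1.58, -1.66 to -1.50), and Ccl4 at 204 and 86.6 CPM (-1.24). A further chemokine, Ccl9, was at 163 and 182 CPM (0.16). Ccl3 was lower in each of the 3 bins, and its log2 ratio was -1.15 in Elane-high and -3.04 in the remaining cells. Of 7 NF-kB and inflammation genes, these 2 were lower and 0 higher, with a median of -0.30. Rgs1, a regulator of G protein signalling, was at 221 and 110 CPM (-1.01).

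**Figure D4:**
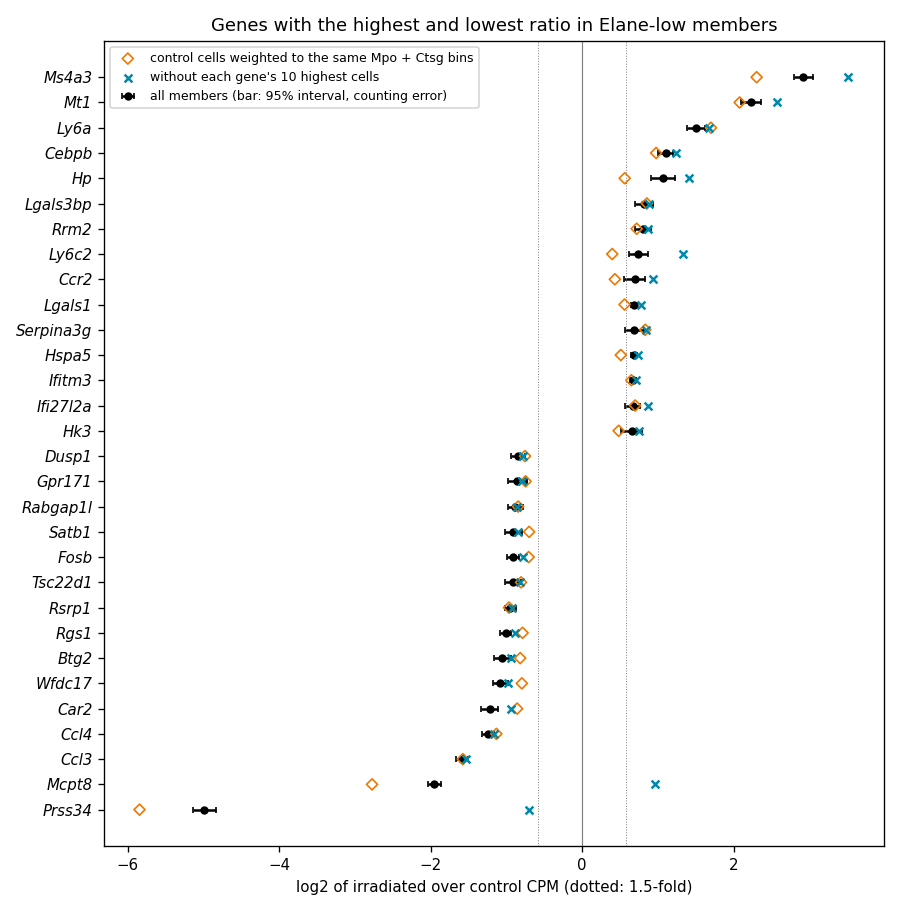
Log2 ratio of irradiated over control CPM in members for the 15 highest and 15 lowest genes at a mean of at least 50 CPM. Black points carry 95% counting intervals, diamonds weight control cells to the same Mpo and Ctsg bins, and crosses leave out the 10 highest cells of each gene and library. Ms4a3 stays above 2 under all 3, Ccl3 stays near -1.5, and Mcpt8 changes side without its 10 highest cells.

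Among genes at a mean of at least 50 CPM, the 2 lowest ratios rested on few cells. Prss34, mast cell protease 11, was at 318 CPM in control members and 10.0 CPM in irradiated members (log2 -4.99), but 10 cells held 99.97% of its control UMIs, and 3.10% and 1.29% of members had a UMI. Mcpt8, a basophil protease, was at 224 and 58.0 CPM (-1.95), with 89.2% of control UMIs in 10 cells. Without the 10 highest cells of each library it was higher in irradiated members (0.96), and without the 15 cells rich in basophil proteases it was 0.90. Car2, carbonic anhydrase 2, was at 95.2 and 40.9 CPM (-1.22), with 29.2% of control UMIs in 10 cells. Below that mean, Ptms (52.0 and 10.5 CPM, log2 -2.31), Klk8 (72.8 and 16.7 CPM, -2.12) and Serpinf1 (67.5 and 19.7 CPM, -1.77) were also low, with 16.2%, 9.08% and 11.2% of their control UMIs in 10 cells.

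Cell cycle calls were close between the libraries. At 5000 UMIs per cell, 10.7% of control (7.69 to 14.4) and 8.20% of irradiated members (6.51 to 10.2) were called G1, 48.5% and 46.7% S, and 40.8% and 45.1% G2/M. The intervals overlapped for each phase. The share called S or G2/M was 2.51 points higher in irradiated members at 5000 UMIs and differed by -4.08 points at 3000 UMIs, so no direction is given. The remaining cells were called G1 in 48.8% and 32.4%. Transcripts of proliferation were mixed: Rrm2, a ribonucleotide reductase subunit that supplies DNA synthesis, was at 74.7 and 130.0 CPM (0.80), and Mki67 at 199 and 149 CPM (-0.42). Of 20 S phase genes, 1 was higher and 0 lower (median 0.09), and of 20 G2/M genes, 0 passed in either direction (median -0.10, against 0.52 in the remaining cells). Of 9 genes of quiescence and of cyclin-dependent kinase inhibitors, 3 were lower and 0 higher (median -0.52). Txnip, an inhibitor of thioredoxin and a brake on growth, was at 44.6 and 23.3 CPM (-0.94), and the other 2, Egr1 and Klf2, are also on the immediate early list. Cdkn1a, the p53 target that encodes p21, was at 60.5 and 77.1 CPM (0.35).

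The measured genes of the response to DNA damage were within 1.5-fold at day 15, with Btg2 as the exception. Only 6 of 19 listed p53 targets and 16 of 23 listed DNA repair genes reached a mean of 20 CPM, and the rest were not assessed. Of 6 p53 targets measured, 0 were higher and 1 lower (Btg2), with a median of 0.24 that was -0.029 after thinning. Of 16 DNA repair genes, 0 passed in either direction and the median was 0.04, the same as over all genes. H2afx, the histone variant marked at breaks, had a log2 ratio of -0.40. Of 7 Bcl2 family and cytochrome c genes, 0 passed. Bak1, a pore-forming killer protein, had 0.49 and Bcl2, its survival counterpart, -0.31.

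Few genes of growth and secretion programmes passed 1.5-fold, and most of those measured had ratios above 0. Of 19 ER folding and secretion genes, all 19 were above 0, 2 passed and the median was 0.25. With control cells weighted to the same Mpo and Ctsg bins the ER median was 0.14. Hspa5, the main ER chaperone, was at 422 and 678 CPM (0.68, 0.64 to 0.73). Its ratio was 0.76, 0.66 and 0.23 from the lowest to the highest Mpo and Ctsg bin. Xbp1, a transcription factor of the unfolded protein response, was at 33.5 and 52.2 CPM (0.64). Of 17 ribosome biogenesis genes, 15 were above 0 and 0 passed (median 0.27). All 13 glycolysis genes were above 0 with 0 passing (0.26), among them Eno1 with 0.58. All 18 nuclear oxidative phosphorylation genes were above 0 with 0 passing (0.23), whereas the 12 mitochondrially encoded genes had a median of -0.24. Tfrc, the transferrin receptor for iron uptake, was at 27.9 and 51.6 CPM (0.89). The ER and glycolysis medians had the same sign in Elane-high cells (0.19 and 0.13) and in the remaining cells (0.23 and 0.25). Of 4 haem synthesis, 5 NADPH oxidase and 5 cholesterol synthesis genes, 0 passed, with medians of 0.12, -0.015 and -0.073. Of 3 MHC class II genes, 1 was lower: H2-DMb1, which helps load peptides, was at 37.9 and 20.8 CPM (-0.86). Of 14 adhesion and migration genes, 2 were higher (Lgals1 and S100a6) and 0 lower, with a median of -0.016.

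**Figure D5:**
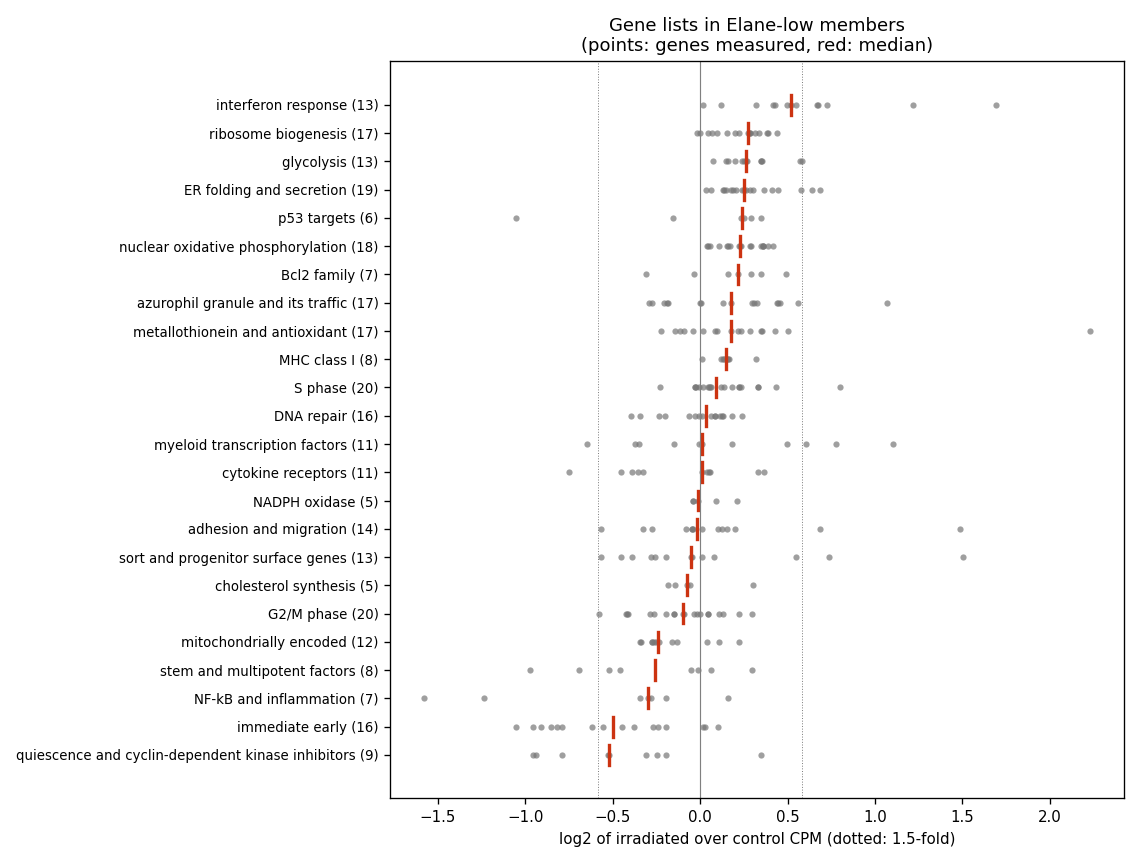
Each grey point is the log2 ratio of irradiated over control CPM in members for 1 measured gene, grouped by list with the number measured, and red bars are list medians. Dotted lines mark 1.5-fold. Among the programme lists drawn, interferon response has the highest median (0.52), and the quiescence and immediate early lists the lowest (-0.52 and -0.50).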

How the data were processed

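Droplet libraries (10x Genomics 3' chemistry) of sorted LSK cells were deposited as raw UMI counts per gene and barcode, 1 matrix per library. Per the submitters' processing notes they were made with Cell Ranger 2.1.1 on mm10, but per the file headers the software version was 3.1.0. Barcodes with at least 1000 UMIs, 500 genes and at most 10% mitochondrial UMIs were kept. Members held 11649181 control and 37616289 irradiated UMIs, with medians of 31453 and 39127 per cell. Counts were summed over members and scaled to CPM. Ratios carry exact conditional binomial 95% intervals and shares Clopper-Pearson intervals, for counting error only. With 1 library per group no test was run, and a gene was called at 1.5-fold and a mean of at least 20 CPM. Scrublet marked 2 control and 16 irradiated cells and so did not work as a doublet caller. No cell was removed, and an alternative left out the 6% with the highest scores. Phases were called with scanpy 1.11.5 on cells thinned to 5000 UMIs, with numpy 2.4.6 and scipy 1.17.1. The B-lineage reference cells were those with at least 5 UMIs per 10000 of 6 B lineage markers. Named genes are the 15 highest and 15 lowest ratios at a mean of at least 50 CPM, the first 2 and the 2 most changed of each list, the neutrophil-primed markers, and 12 of the genes among the 40 most above the remaining cells in both libraries. Id1, Klf2, Myc, Lyz2, Cst7, Cd63, Ptms, Klk8, Serpinf1, Ifi209 and H2-Q6 were named after their values were seen. The members and all 38 lists were chosen with earlier results of these data known. The scripts were tested on simulated counts. Of 31053 feature identifiers, 31011 were found in GENCODE M21. Ly6c2, Ly6a, Serpina3g and the Ifitm and Mcpt genes have close relatives, and how reads shared between copies were counted is not given in the sources used here.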

Additional observations from a re-analysis of the deposited data

Results flagged for a closer look

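Mcpt8, a basophil protease, moved in opposite directions in 2 sets of cells. Its log2 ratio of irradiated over control CPM was -1.95 in Elane-low members and 1.18 in all remaining kept cells, where it stood at 5.59 and 12.7 CPM. This difference between the sets was not tested, since each condition has 1 library. Of the control UMIs in members, 89.2% came from 10 cells.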

How the results depend on the processing

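No paired analysis was possible because each condition has 1 library and no test was run. The difference in member share, 13.2 percentage points, was 14.9 with at least 10 and 10.2 with at least 25 Mpo and Ctsg UMIs per 10000, 16.6 with Elane under 10, 10.8 with no Dntt UMI and 0.715 with no Elane UMI (2.89% and 3.61% of cells), a limit that depends on depth and on free RNA: 3.45% of control and 25% of irradiated B-lineage cells had an Elane UMI. The 57 higher and 88 lower genes became 22 and 36 at a mean of at least 50 CPM, 960 and 2417 with no minimum beyond 1 UMI, 145 and 169 after thinning to 5000 UMIs, 448 and 405 in G1 cells alone (38 and 76 cells) and 89 and 59 without the 10 highest cells of each gene. The immediate early median was -0.35 with no Elane UMI and -0.28 with matched bins. The S and G2/M share, 2.51 points higher in irradiated members, was 4.08 points lower (-4.08) at 3000 UMIs. Prtn3 in members over the remaining cells was 1.63 (thinned) and 1.66 (cells weighted equally) in control and 2.37 and 2.34 in the irradiated library. Among results not near 0, changes of direction were Mcpt8 (0.90 without basophil protease cells, 0.96 without its 10 highest cells), the mast cell and basophil median (0.85 and 0.91 in the same 2 settings), Irf8 (0.071) and the monocyte and dendritic median (2.57) in G1 cells, the stem factor median (0.013) without the 10 highest cells, and the p53 target median (-0.029 thinned, -0.063 in G1 cells). The alternative without basophil protease cells was chosen after seeing the data. Leaving out the 10 highest cells of each gene takes a larger part of the control members than of the irradiated ones, which can raise ratios. Of 45 named genes past 1.5-fold, 43 kept 1 direction under all 11 alternatives, as did 18 of 30 list medians. Besides the 4 above, the medians of 8 lists that lay near 0 crossed it: G2/M (-0.22 to 1.30), S phase (-0.010 to 0.43), myeloid factors (-0.046 to 0.25), cytokine receptors (-0.30 to 0.24), DNA repair (-0.087 to 0.22), NADPH oxidase (-0.065 to 0.28), adhesion (-0.051 to 0.069) and cholesterol (-0.15 to 0.36). The causes were not tested. Counting error limits genes near 20 CPM, and no value here speaks of variation between mice.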
